A study of Mus musculus with 32 samples.

Results

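The ribosome-bound RNA of Sall1-CreER mice was recovered in 2 ways from the same 4 brains, and these 8 libraries of the 32 in the series are described here. In 4 libraries (HA), an anti-HA antibody was added straight to homogenate of brain tissue. In the other 4 (SortIP), microglia were first isolated by enzymatic digestion, a density gradient and flow cytometry, and the anti-HA precipitation followed. Libraries were chosen by their column names, which match their titles, and were paired by the number of the mouse (7, 9, 17 and 21). All mice were C57BL/6 and of the genotype Sall1-CreER:RPL22-HA, and each received 5 mg of tamoxifen by gavage, repeated on alternate days to 4 doses, when 4 to 6 weeks old, so every group carries both alleles and the treatment. The labels give no age at collection. Cre is driven from Sall1, and which cells had recombined is not given by the labels. The same brains also gave an isotype control precipitate of homogenate (IgG) and sorted microglia without precipitation (Sort), which serve as reference levels.

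In RiboTag mice, Cre switches the ribosomal protein RPL22 to a form with a haemagglutinin (HA) tag, and anti-HA beads then pull down tagged ribosomes with the mRNA they carry. RNA recovered directly from homogenate comes from every cell that recombined, plus whatever sticks to the beads. The homogenate here was made in ice-cold buffer with cycloheximide, which stalls ribosomes on their mRNA. Sorting restricts the sample to cells of one gate, but the cells stay alive through digestion and staining, and microglia are known to switch on immediate early and inflammatory genes during such handling.

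Reads assigned to genes numbered 1894943 to 3027342 in an HA library and 249881 to 980218 in a SortIP library, where that of mouse 21 was the shallowest. That library also held more glial and choroid plexus RNA than its group: S100b stood at 72.0 CPM (counts scaled to a library total of 1e6 gene counts) against 3.4 to 11.2 in the other 3, and Ttr at 3890 against 656 to 1191. Neutrophil transcripts S100a8 and S100a9 reached 80.0 and 88.0 CPM in it and at most 11.4 CPM in the other SortIP libraries. Fold changes below are log2 values of HA over SortIP with their SE from a model with the mouse as a block, so a negative value is lower in HA, and means are given with the SD over n = 4 mice. With a threshold of 0.05 on the adjusted p, 4451 of 10494 tested genes were called higher in HA (42.4%) and 3919 lower (37.3%), 79.8% together, around a median of 0.13. A call alone is therefore the common outcome in this comparison, and sizes and levels are given with it. Both precipitates differ in handling and in starting material at once, and these cannot be told apart. In bulk RNA, fewer cells of a type and less RNA per cell cannot be told apart either.

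Transcripts that define microglia were scarce in the direct precipitate. The 35 homeostatic microglia genes took 0.909, 0.813, 0.828 and 0.909% of gene counts in the HA libraries of mice 7, 9, 17 and 21, and 11.6, 12.0, 11.4 and 11.5% in their SortIP libraries. IgG lay between 0.190 and 0.234% and Sort between 8.76 and 9.68%, so the HA share was above the isotype control in every mouse and far below both sorted groups. All 35 listed genes passed the low-count filter (an individual CPM of about 6.96 in at least 4 libraries), and 34 were called lower in HA and 0 higher. Of the 35, 8 were over the cutoff in every SortIP but not every HA library and 27 in both groups. Their median was −4.42, with a range from −10.00 (Gpr34) to 0.20 (Cd81, not called).

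**Figure D1:**
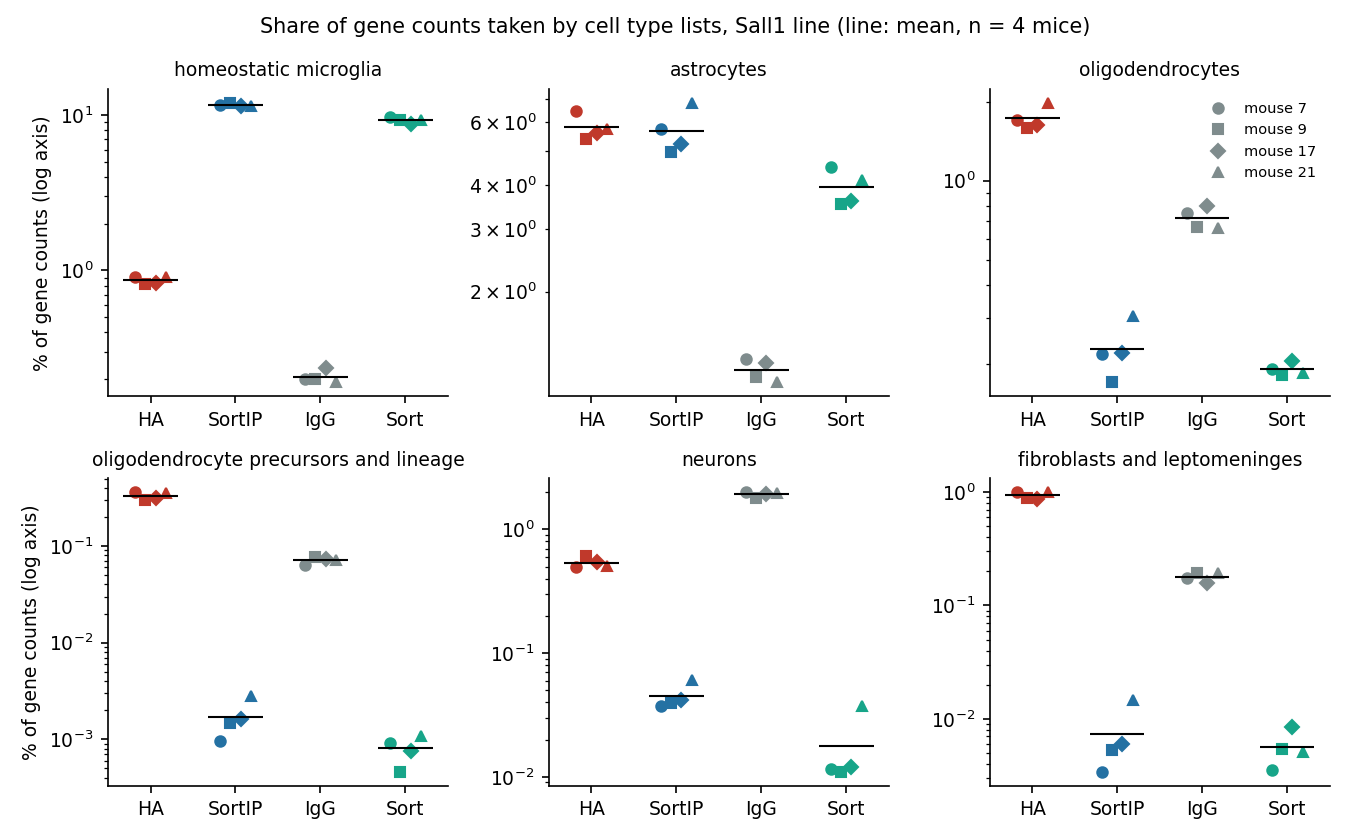
Percent of gene counts taken by 6 cell type lists in each library of the Sall1 line (log axis, colours for the 4 sample types, symbols for the 4 mice, line for the mean). The microglial share is lowest in IgG and is 0.865% in HA against 11.6% in SortIP and 9.28% in Sort (means), whereas neuronal genes are highest in IgG; the astrocyte share is similar in HA and SortIP, with Apoe and Cst3 making up most of it in SortIP.

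Gpr34, an X-linked receptor for lysophosphatidylserine that marks microglia (chrX:13209895-13217984, mm9), is at one extreme of that range. Its level was 0, 0.428, 1.23 and 0.661 CPM in the HA libraries (6 counts in all) and 918, 579, 983 and 724 CPM in SortIP. In IgG it stood at 8.52, 7.66, 15.4 and 6.80 CPM, above every HA library. The fold change was −10.00 ± 0.31 (edgeR adjusted p = 2.3e-64). P2ry12 and P2ry13, neighbouring genes of purinergic receptors with which microglial processes sense nucleotides, followed. P2ry12 (chr3:59020193-59066753) reached 1.58, 6.00, 7.81 and 7.93 CPM in HA and 2418, 2256, 2872 and 2301 CPM in SortIP, a fold change of −8.52 ± 0.26, and its mean of 49.5 ± 19.3 CPM in IgG was again above HA. P2ry13 was lower by a similar margin, at −7.53 ± 0.25, with 4.14 ± 1.08 CPM in HA, 863 ± 115 in SortIP and 11.6 ± 1.31 in IgG.

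Other members were above the isotype control in HA while still below SortIP. Tyrobp, the signalling adaptor of TREM2, had 567, 461, 475 and 345 CPM in HA, 1937, 2057, 2372 and 2237 in SortIP, and 34.7 ± 7.03 in IgG. Its mean in HA was thus 13.3 times that in IgG, and within a mouse SortIP exceeded HA 3.42-fold to 6.48-fold. C1qa, a chain of complement C1q, had a mean of 1833 ± 202 CPM in HA, 16595 ± 908 in SortIP and 201 ± 19.3 in IgG. Tmem119, a surface marker of microglia, was 10.2 to 12.3 times higher in SortIP than in HA within each mouse, and 8.88 times higher in HA than in IgG. For Csf1r, the receptor on which microglial survival depends, the within-mouse factor was 27.6 to 36.2 and the excess over IgG 2.64-fold. Of the 35 genes, 24 had all 4 HA libraries above all 4 IgG libraries, against 24.1% of all tested genes, and 4 had all 4 below, against 37.6%. No test was made of HA against IgG here.

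Sall1, a transcription factor that among brain macrophages is specific to microglia (chr8:91551143-91568061), had 22.7, 33.8, 32.5 and 31.1 CPM in HA and 262, 222, 240 and 264 in SortIP, a fold change of −2.88 ± 0.21. IgG held 7.10 to 22.1 CPM, so all HA libraries exceeded it. Cx3cr1, the fractalkine receptor, fell further, by 5.74 ± 0.22 on the log2 scale, and its 73.1 ± 11.8 CPM in HA was close to the 59.6 ± 6.30 CPM in IgG. Rpl22, the tagged gene, was at 282, 322, 304 and 334 CPM in HA and 253, 196, 286 and 268 in SortIP. Its groups overlapped, and its call (0.48 ± 0.18, adjusted p = 0.00972) was lost without mouse 9 (0.31, adjusted p = 0.114), without TMM scaling (0.32, adjusted p = 0.0769), with a length correction (0.33, adjusted p = 0.0727) and under a stricter filter (0.25, adjusted p = 0.168).

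**Figure D2:**
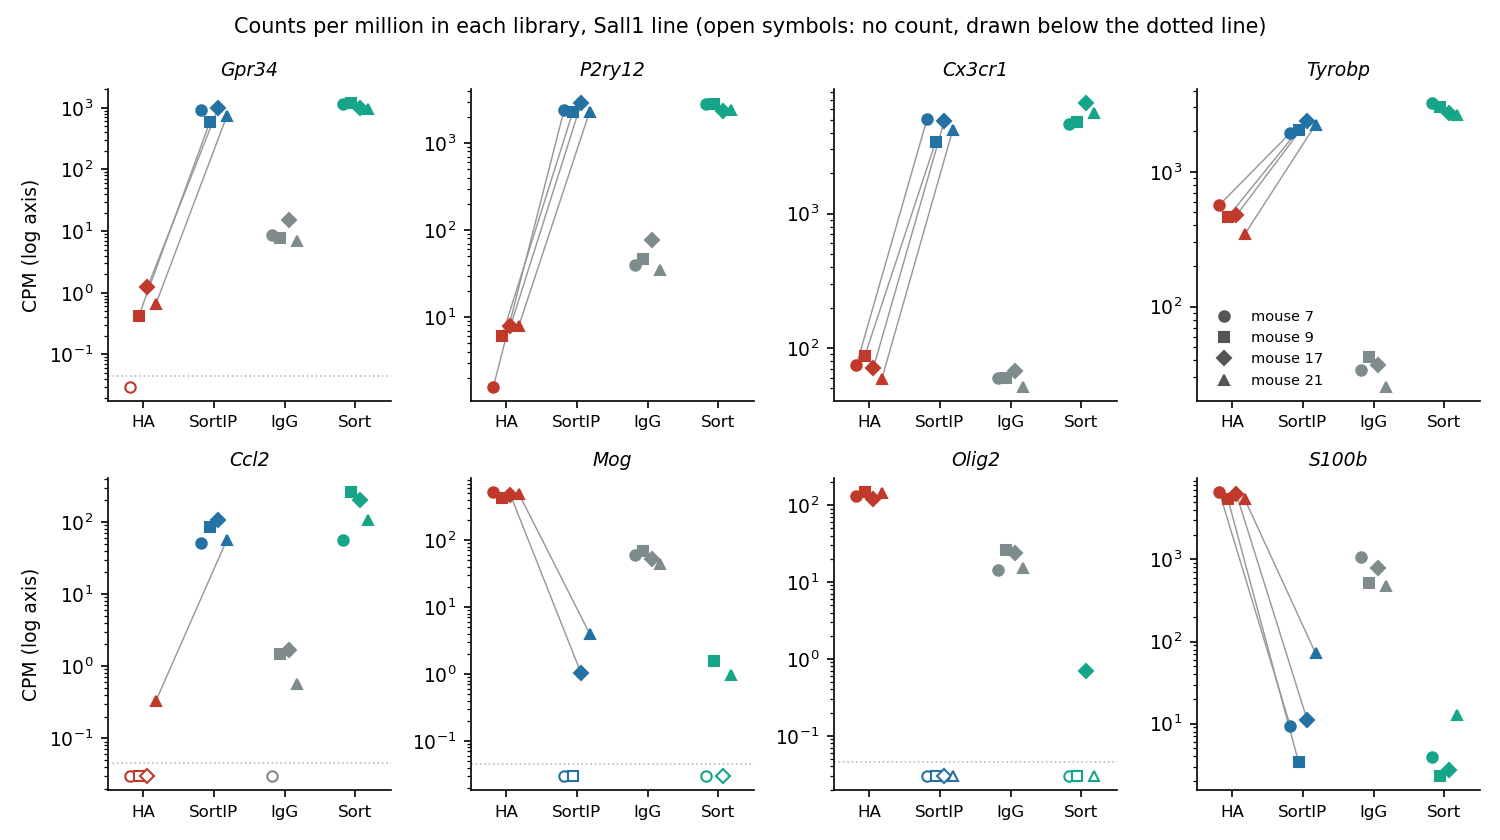
CPM of 8 genes in each library of the Sall1 line (log axis, symbols for mice, lines joining HA and SortIP of a mouse, open symbols below the dotted line for libraries without a count). Gpr34 and P2ry12 are lower in HA than in IgG, Tyrobp lies between IgG and the sorted groups, and Mog, Olig2 and S100b are far higher in HA than in SortIP, where Mog is at 4.00 CPM or less, Olig2 at 0 and S100b between 3.4 and 72.0 CPM.

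The order of the microglial genes followed the base composition of their transcripts. Across the 35 genes the fold change rose with GC content (Spearman rho 0.526, a description over genes that share the same libraries). Gpr34 and P2ry12, at 36.4 and 39.6% GC, had the lowest values, and C1qa, Tmem119 and Trem2, at 57.5 to 59.5% GC, were among those least lowered. The same sign held for all genes. Over 10468 tested genes with a GC value rho was 0.355, and the medians of 5 equal groups of genes from lowest to highest GC were −1.47, −0.20, 0.36, 0.66 and 1.10. Length showed a weaker trend in the opposite direction (rho −0.196 over 10494 genes).

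An AT-rich transcript outside this list was low as well. B2m, the light chain of MHC class I (41.2% GC), was at 74.6 ± 10.8 CPM in HA, 5923 ± 1065 in SortIP and 127 ± 23.9 in IgG, so every HA library was below every IgG library, as for Gpr34. Within the list, Mef2c, a transcription factor gene of both neurons and microglia (44.4% GC), was 13.6 times lower in HA than in IgG. Among 24 tested neuronal genes the rank correlation with GC was 0.757. A fit with GC content and length as added corrections, chosen after the data had been seen, moved Gpr34 to −6.87, P2ry12 to −6.18 and Tyrobp from −2.07 to −3.48. In that fit all 35 microglial genes were called lower, with a median of −4.51. Of all 8370 called genes 6864 kept their call and direction and 264 were called in the opposite direction. What sets the trend was not tested.

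**Figure D3:**
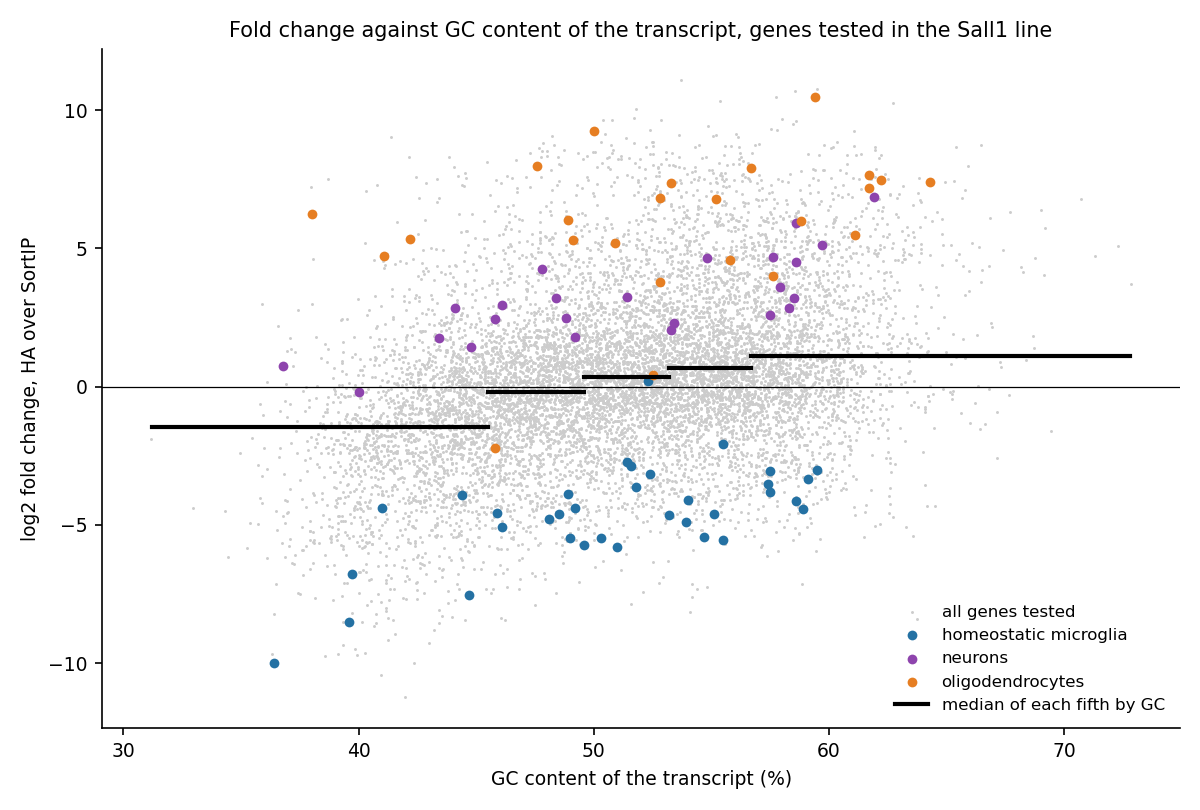
Log2 fold change of HA over SortIP against the GC content of the transcript for all tested genes (grey), 3 lists (colours) and the medians of 5 equal groups of genes by GC (black bars). Medians climb from −1.47 to 1.10, and the microglial genes also climb with GC but lie mostly below the black bars.

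Macrophages of the perivascular space and brain borders, which lie outside the parenchyma, have their own markers. Of 14 such genes only 3 passed the filter, and these 3 were called lower in HA. Of the 3, 2 (Mrc1 and Pf4) passed the filter through SortIP, so their direction was largely fixed by their entry into the test. Mrc1, the mannose receptor, had 8 counts over the HA libraries (0.882 ± 0.703 CPM) and stood at 116, 71.4, 115 and 84.0 CPM in SortIP, a fold change of −6.54 ± 0.38. Pf4, platelet factor 4, fell by 1.86 ± 0.45 (3.20 ± 1.58 against 14.1 ± 5.31 CPM), and Stab1, a scavenger receptor, by 4.84 ± 0.21. All 3 means in HA were below those in IgG, as in 6068 of all 10494 tested genes. The other 11, Lyve1, Cd163 and Siglec1 among them, had means of at most 7.31 CPM in both groups.

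Oligodendrocyte transcripts showed the reverse. Of 26 listed myelin and oligodendrocyte genes 24 were tested, 23 were called higher and 1 lower in HA, with a median of 6.14. Of the 24, 16 passed the filter through HA, so their direction was largely fixed by their entry into the test. Mog, a protein of the outer myelin surface (chr17:37147685-37160343), was at 515, 429, 474 and 491 CPM in HA and at 0, 0, 1.02 and 4.00 CPM in SortIP, the last being 1 count in each of 2 libraries. The ratio of the pooled levels was 629, with a 95% counting interval from 174 to 5191. IgG held 59.6, 67.7, 51.9 and 44.7 CPM, so HA exceeded the isotype control in each mouse. Mbp, the main structural protein of compact myelin, was higher by 6.01 ± 0.23 (5405 ± 949 against 105 ± 67.2 CPM, and 2614 ± 382 in IgG).

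Enpp2, the gene of autotaxin, which choroid plexus epithelium also makes, was the only called exception in this list, at −2.20 ± 0.42 (adjusted p = 0.00173). Its SortIP level ran from 74.1 in mouse 7 to 632 CPM in mouse 21. Trf, transferrin, was called higher by only 0.42, and sorted microglia held it at 1457 ± 93.3 CPM. Over the list, 22 of the 24 tested genes had all HA libraries above all IgG libraries and 1, Enpp2, below. Of all tested genes 24.1% were above and 37.6% below in this way.

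Genes of oligodendrocyte precursors were near 0 in SortIP. Of 16 listed genes 10 were tested, and each of these exceeded the filter in every HA library and not in every SortIP library, so that passing the filter already required a difference. Olig2, a lineage-determining transcription factor (chr16:91225795-91228922), had 132, 146, 120 and 142 CPM in HA and 0 counts in all 4 SortIP libraries. Against a floor of 3 counts over that group it was at least 119-fold higher in HA, and IgG held 14.2 to 26.2 CPM. Olig1 reached 1450 ± 307 CPM in HA and 2.03 ± 2.19 in SortIP (9.23 ± 0.32), and Bcan, a proteoglycan of perineuronal matrix made by precursors and astrocytes, 1404 ± 288 and 6.36 ± 3.80 CPM (8.06 ± 0.28). The list's median was 7.58, or 5.45 with the 3 genes without a SortIP count set at their bound. The remaining 6, Tnr among them, did not pass the filter.

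Astrocyte genes were also high in HA. Of 26, all tested, 23 were called higher and 1 lower, and their median was 6.04, with 18 of them over the filter cutoff in every library of HA and not of SortIP. Mlc1, a membrane protein of astrocyte endfeet, was at 2015, 1885, 1972 and 1757 CPM in HA and at 5.70, 9.06, 4.08 and 12.0 in SortIP (8.25 ± 0.28), with 224 ± 33.2 in IgG. Ntsr2, a neurotensin receptor, and Acsbg1, an acyl-CoA synthetase, were higher by 7.84 ± 0.30 and 7.64 ± 0.30. S100b, a calcium-binding protein of astrocytes and some oligodendrocytes, was higher by 8.73, with 5916 ± 584 CPM in HA and 8.30 times its IgG level.

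The list as a whole nevertheless took similar shares of both precipitates, 5.40 to 6.46% in HA and 4.94 to 6.81% in SortIP. Apoe and Cst3, which microglia also express, accounted for 4.84 to 6.64% in SortIP and 2.37 to 2.96% in HA. Without this pair, singled out after the values had been seen, the other 24 genes took 3.03 to 3.50% in HA, 0.102 to 0.168% in SortIP and 0.807 to 0.935% in IgG. Cst3, cystatin C, was the member called lower (−1.74 ± 0.19), and Apoe was not called (0.31).

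Neuronal genes rose over SortIP but not over the isotype control. Of 26, 24 were tested, 23 were called higher and 0 lower, with a median of 2.91, and 13 of the 24 passed the filter through HA. Nrgn, neurogranin of postsynaptic spines, had 1947, 2296, 1941 and 1885 CPM in HA, 47.5, 31.7, 27.5 and 52.0 in SortIP, and 4370, 3350, 3710 and 4258 in IgG. Eno2, the neuronal enolase, was higher by 4.66 ± 0.23 over SortIP, and its 613 ± 77.0 CPM in HA was below the 1399 ± 158 in IgG. In 22 of the 24 genes all HA libraries were below all IgG libraries (37.6% of all tested genes were). Slc32a1, the vesicular transporter for GABA and glycine, was the member with all HA libraries above, at 350, 429, 372 and 288 CPM against 178, 209, 194 and 173 in IgG.

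Tested markers of the vessel wall did not all go in the same direction. Mural cell genes that were tested, 7 of 12, were all called higher, and each passed the filter through HA. Vtn, vitronectin of pericytes, was at 334, 312, 304 and 517 CPM in HA and 1.90, 0, 5.10 and 24.0 in SortIP (6.29 ± 0.33), Higd1b was at least 25.8-fold higher and Pdgfrb, the receptor that recruits pericytes, at least 40.1-fold higher. Endothelial genes stayed low, and 3 of 16 were tested: Eng (−3.16 ± 0.21) and Ly6a (−2.13 ± 0.41) were called lower and Egfl7 (2.97 ± 0.53) higher. In all 3 every HA library was below every IgG library, as in 37.6% of all tested genes. Sorted microglia without precipitation held Eng at 168 ± 33.3 CPM and Ly6a at 21.5 ± 4.9 CPM. Untested members went both ways: Cldn5, the endothelial tight junction protein, averaged 6.39 CPM in HA, 0.758 in SortIP and 101 in IgG. Flt1 averaged 2.49, 4.69 and 75.2 CPM.

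Genes of fibroblasts and leptomeninges, 11 of 13 tested, were all called higher, but 10 of them passed the filter through HA, which largely fixes that direction. Ptgds, prostaglandin D synthase of the leptomeninges and of oligodendrocytes, stood at 7508 ± 579 CPM in HA, 35.4 ± 22.3 in SortIP and 1194 ± 139 in IgG (8.05 ± 0.27). Igf2 was higher by 4.98 ± 0.28 and Crym by 4.99 ± 0.32, although Crym in HA (143 ± 25.3 CPM) was below IgG (196 ± 19.7 CPM). Ependymal genes, 8 of 16 tested, were likewise all called higher, 7 of them passing through HA. The ratio was 122 for Rarres2 (95% counting interval 33.7 to 1010) and 88.8 for Foxj1, the master regulator of motile cilia (24.5 to 735), and Ccdc153 was at least 38.5-fold higher.

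Choroid plexus genes gave no common direction. Of 12, 3 were tested: Folr1, a folate receptor, was called higher (2.25 ± 0.42), Enpp2 lower and Ttr neither. Ttr, transthyretin, was at 3557, 3992, 2844 and 2645 CPM in HA and 656, 667, 1191 and 3890 in SortIP (1.62 ± 0.74, adjusted p = 0.128). The overlap comes from mouse 21 alone, and without it Ttr was called at 2.21 ± 0.20 (adjusted p = 1.35e-12).

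**Figure D4:**
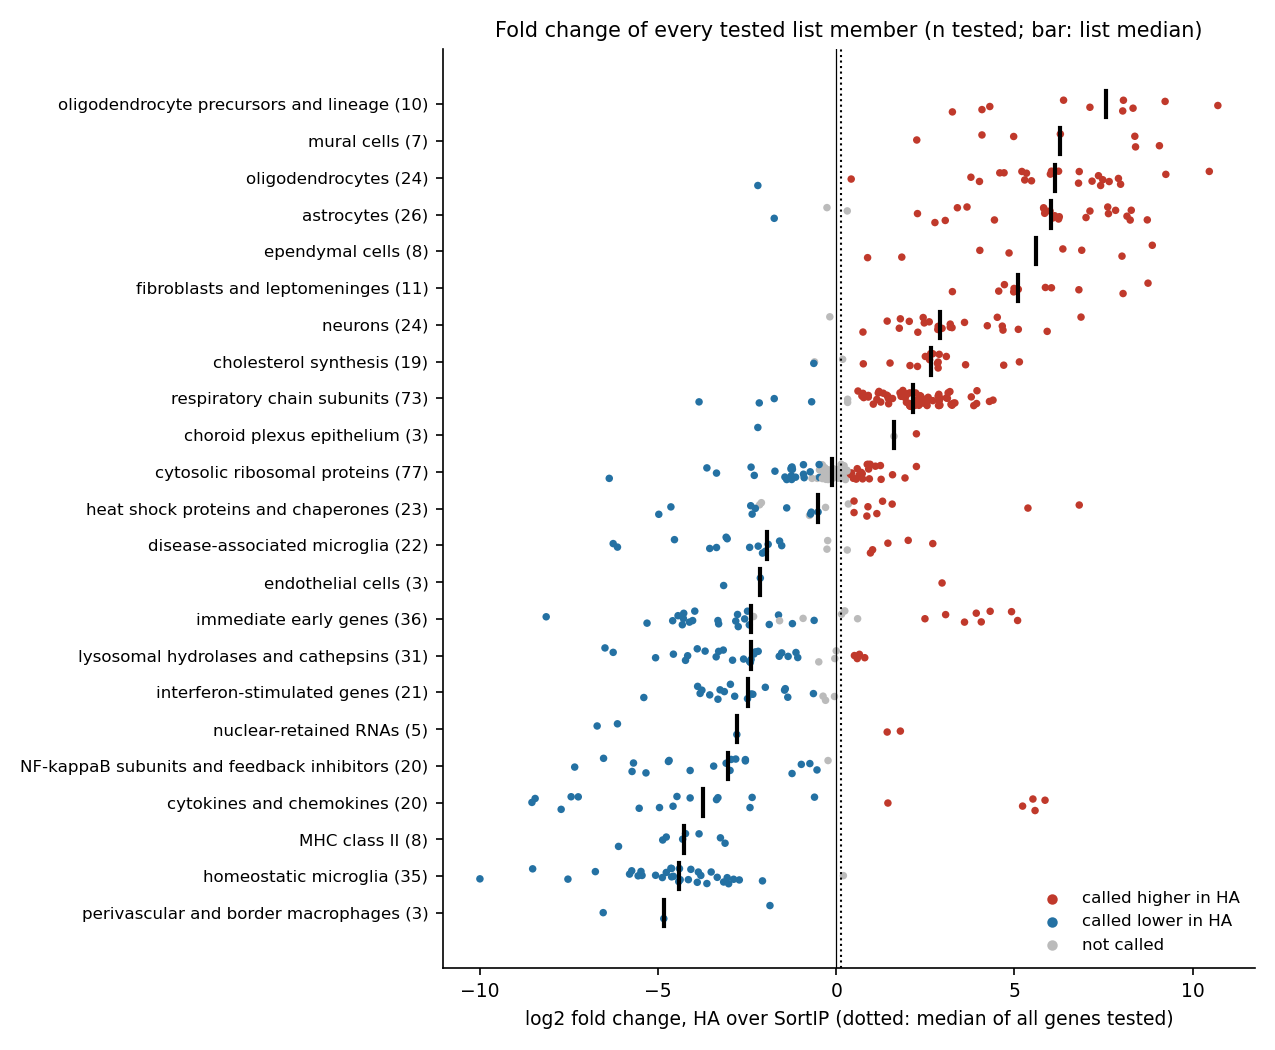
Log2 fold change of HA over SortIP for each tested member of the 23 lists with at least 3 tested genes (red called higher, blue called lower, grey not called, black bar for the list median, dotted line for the median of all genes at 0.13). Astrocyte, oligodendrocyte, mural and meningeal lists have medians to the right. Microglial, endothelial, MHC class II and NF-kappaB lists have medians to the left, and ribosomal protein genes straddle 0. The endothelial median rests on 3 genes, 1 of them called higher.

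Transcripts of microglial states were also low in HA. All 8 tested MHC class II genes (of 11 listed) were called lower, with a median of −4.27, and 6 of them passed the filter through SortIP, where they are high. H2-Aa, an alpha chain of the class II molecule, had 2.11, 4.28, 5.76 and 1.32 CPM in HA and 182, 88.4, 139 and 60.0 in SortIP, and Cd74, its invariant chain, 6.27 ± 1.23 against 137 ± 44.5 (−4.23 ± 0.26). H2-DMa, part of the complex that loads peptides, was also lower (−3.25 ± 0.19). Interferon-stimulated genes, 21 of 24 tested, gave 18 lower and 0 higher with a median of −2.49, and 12 of the 21 passed the filter through SortIP. Among the 18 called lower were Lgals3bp (−2.85 ± 0.19), Cxcl10 (−3.32 ± 0.30) and Bst2 or tetherin (−1.99 ± 0.18).

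Disease-associated microglia genes, 22 of 24 tested, gave 14 lower and 5 higher. Trem2, the lipid-sensing receptor of this state, was at 320, 288, 296 and 269 CPM in HA and 2490, 3833, 2445 and 2409 in SortIP (−3.06 ± 0.19). Clec7a, a receptor for fungal glucans, had 6 counts in HA in all and 60.4 ± 16.1 CPM in SortIP (−6.26 ± 0.44). Ank, a pyrophosphate transporter, was called higher (2.71 ± 0.23), and its HA level of 182 ± 14.2 CPM was close to the 160 ± 11.5 CPM of IgG. Lysosomal genes, all 31 tested, gave 24 lower and 4 higher (median −2.39). The cathepsin genes Ctss and Ctsc fell by 4.57 ± 0.21 and 6.26 ± 0.23, while Gaa, acid glucosidase, was higher (0.80 ± 0.18), a call that was lost with the GC and length correction (0.01, adjusted p = 0.943).

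Among immediate early genes, which cells induce within minutes of a stimulus, 36 of 44 were tested. Of these 22 were called lower in HA, 8 higher and 6 neither, with a median of −2.38. The filter cutoff was exceeded in every library of both groups by 21, of HA only by 9 and of SortIP only by 5. Entry through 1 group largely fixes the direction of such a gene. Fos, a subunit of AP-1, was at 22.2, 46.7, 37.4 and 18.5 CPM in HA and 253, 1824, 1088 and 264 CPM in SortIP of mice 7, 9, 17 and 21. Mice 9 and 17 were high in both precipitates, and Sort had the same pair on top (523, 1728, 1972 and 681 CPM). Jun, its partner, was at 51.2, 82.7, 72.4 and 57.8 CPM in HA and 947, 2404, 1367 and 780 in SortIP (−4.12 ± 0.20). In IgG both means were above HA, at 55.9 ± 17.7 CPM for Fos and 108 ± 29.2 for Jun.

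The whole list took 0.709, 1.80, 1.22 and 0.600% of gene counts in SortIP and 0.165, 0.189, 0.182 and 0.161% in HA, so mice 9 and 17 led in both and the groups did not overlap. Sort held 0.867, 2.16, 2.11 and 1.07%. Zfp36, which binds AU-rich mRNAs and speeds their decay, was the lowest member, at 629, 2629, 1336 and 524 CPM in SortIP and 1.23 to 6.61 in HA. Dusp6, a phosphatase that limits ERK signalling, varied little between mice within either precipitate (6.99 to 11.6 CPM in HA, 412 to 438 in SortIP, −5.31 ± 0.23). Btg1, an antiproliferative factor, was lower by 4.29 ± 0.22.

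The 8 higher members were Nr4a1, Nr4a3, Npas4, Arc, Egr4, Cyr61, Gadd45b and Plk2, several of which are known for activity-dependent expression in neurons. Nr4a1, Npas4, Arc, Egr4, Cyr61 and Gadd45b were over the filter cutoff in every HA but not every SortIP library, which largely fixes their direction. Nr4a1, an orphan nuclear receptor, was at 166, 171, 190 and 208 CPM in HA and 13.3, 20.4, 20.4 and 4.00 in SortIP (3.60 ± 0.26). Npas4 had 34.6 ± 12.2 CPM in HA and 1.51 ± 1.92 in SortIP, and Arc 106 ± 34.5 and 7.14 ± 1.75. For 6 of the 8 the IgG mean was above that in HA, as at 258 ± 75.0 CPM for Nr4a1, 106 ± 22.1 for Npas4 and 309 ± 34.3 for Arc. Over all tested genes the HA mean was below the IgG mean in 6068 of 10494, so such a count is common. Cyr61 (34.2 ± 5.87 CPM in HA, 15.3 ± 10.2 in IgG) and Gadd45b (89.5 ± 16.2 and 83.1 ± 8.52) had the higher mean in HA. Atf3, a stress-induced repressor, differed from these: it was above IgG in each mouse (14.2 to 44.4 against 3.40 to 7.36 CPM), and within mice its SortIP level ranged from below HA (mouse 7, HA 1.42 times higher) to 3.32 times above it (mouse 9).

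**Figure D5:**
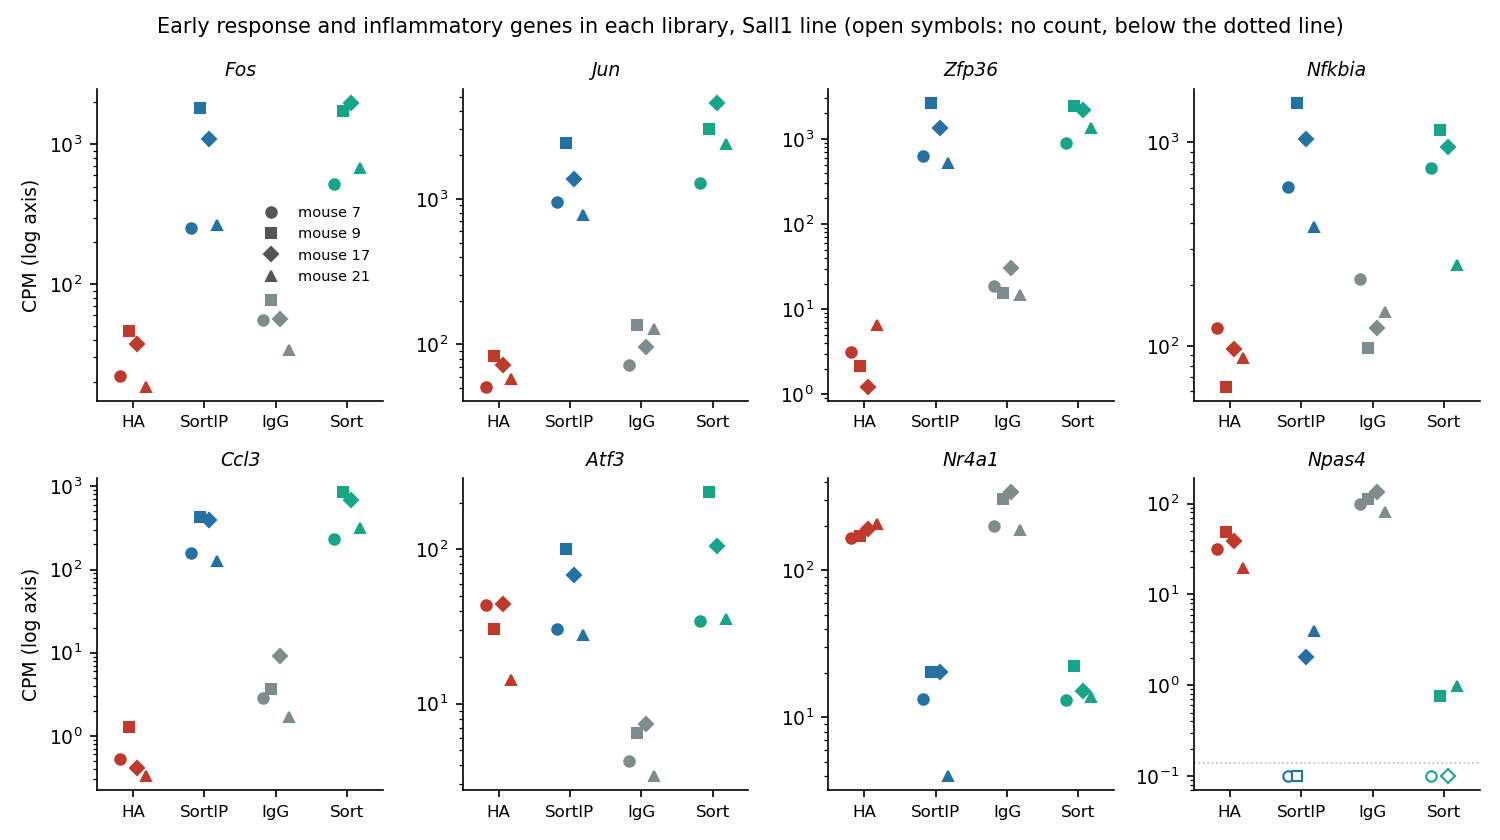
CPM of 8 early response and inflammatory genes in each library of the Sall1 line (log axis, symbols for mice, open symbols below the dotted line for no count). Fos, Jun, Zfp36, Nfkbia and Ccl3 are high in both sorted groups, with mice 9 and 17 above mice 7 and 21 in SortIP, whereas Nr4a1 and Npas4 are high in HA and highest in IgG.

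Cytokine and chemokine genes gave the widest range. Of 28, 20 were tested, 15 were called lower and 5 higher, with a median of −3.73, and 10 passed the filter through SortIP and 4 through HA. Ccl2, the main monocyte attractant (chr11:81849079-81850954), had a single count over all HA libraries, in mouse 21, and 51.3, 85.0, 106 and 56.0 CPM in SortIP. The pooled ratio of SortIP to HA was 808, with a 95% counting interval from 143 to 32045, and IgG held 0 to 1.67 CPM. Ccl3, a chemokine of activated microglia, was at 158, 423, 389 and 128 CPM in SortIP and 0.330 to 1.29 in HA (−8.45 ± 0.34), with mice 9 and 17 again high.

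Tnf had 1 HA library with a count and Il1b none, against means of 34.8 ± 16.3 and 13.1 ± 3.38 CPM in SortIP. Ccl12 (−4.96 ± 0.23) and Tgfb1, a growth factor that maintains microglia (−4.58 ± 0.22), were lower too, yet their HA means were above those in IgG: 11.5 ± 2.77 against 2.47 ± 2.62 CPM for Ccl12 and, with overlapping libraries, 15.3 ± 5.70 against 9.15 ± 3.89 for Tgfb1. The 5 called higher were Cx3cl1, Cxcl12, Il33, Il34 and Csf1, factors that neurons, astrocytes, oligodendrocytes or vessel cells make. Cx3cl1, the ligand of CX3CR1, was at 289, 449, 334 and 370 CPM in HA and 5.67 to 8.16 CPM in SortIP (5.86 ± 0.28), below the 476 ± 77.2 CPM of IgG.

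NF-kappaB subunits and the inhibitors that NF-kappaB itself induces were nearly all lower in HA. Of 22, 20 were tested, 19 were called lower and 0 higher (median −3.03), and 13 of them passed the filter in every SortIP but not every HA library. Nfkbia, which encodes the inhibitor IkB-alpha, had 122, 63.0, 97.1 and 86.9 CPM in HA and 606, 1558, 1043 and 384 in SortIP. The ratio was largest in mouse 9 (24.7) and smallest in mouse 21 (4.42). Nfkbiz, an atypical nuclear inhibitor, was lower by 6.53 ± 0.42, Cd83, a surface protein of activated myeloid cells, by 4.69 ± 0.28 and Icam1, an adhesion molecule, by 4.10 ± 0.26.

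Sequences just ahead of the start sites of these genes were searched because most members of these lists were lower in HA. RefSeq promoters (build GRCm38.p6) were matched by symbol for 15 of the 19 called NF-kappaB genes, 10 of the 15 lowered cytokine genes and 18 of the 22 lowered immediate early genes. In the 250 bases before the start, on both strands, the NF-kappaB motif was found in 8 of 15 NF-kappaB genes (53.3%), 3 of 10 cytokine genes (30.0%) and 2 of 18 immediate early genes (11.1%), and in 8.23% of 27025 genes with a promoter. The AP-1 motif TGANTCA was present in 3, 3 and 0 of these promoters (7.82% of all), and the CRE motif TGACGTCA in 1, 0 and 2 (1.77% of all). A CArG box was present in 1 immediate early promoter, that of Zfp36 (1.62% of all), and PU.1 (GAGGAAGT) in 2, 0 and 0 (2.79% of all). Of 24 lowered microglial genes with a promoter, 3 held PU.1. AP-1 and CRE matches cannot overlap each other, while neighbouring NF-kappaB matches can. The NF-kappaB list was drawn up to include genes that NF-kappaB itself induces. Nearly all of its tested members were lower, so its share of NF-kappaB motifs cannot be read as a trait of lowered genes.

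The promoters of 4 genes are printed to show these matches, each 5′ to 3′ on the gene's strand (the minus strand for all), ending at the base before the start, with matches in capitals. Tnfaip3, which encodes the A20 feedback inhibitor (chr10:19015411-19015660), holds AP-1 and 2 NF-kappaB matches, Cxcl10 (chr5:92348890-92349139) NF-kappaB and AP-1 matches, Nfkbia (chr12:55492648-55492897) 1 NF-kappaB match, and Dusp1, a phosphatase of stress kinases (chr17:26508473-26508722), 1 CRE match.
Tnfaip3: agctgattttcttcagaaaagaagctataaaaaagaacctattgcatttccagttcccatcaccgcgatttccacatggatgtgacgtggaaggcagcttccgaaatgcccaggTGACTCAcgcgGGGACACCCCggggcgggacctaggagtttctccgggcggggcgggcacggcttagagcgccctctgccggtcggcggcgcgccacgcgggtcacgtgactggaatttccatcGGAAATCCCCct
Cxcl10: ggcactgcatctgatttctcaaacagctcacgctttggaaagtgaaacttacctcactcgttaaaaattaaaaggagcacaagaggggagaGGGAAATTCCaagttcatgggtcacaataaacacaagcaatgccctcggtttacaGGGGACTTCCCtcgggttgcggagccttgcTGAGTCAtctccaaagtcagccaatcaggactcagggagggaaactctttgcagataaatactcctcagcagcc
Nfkbia: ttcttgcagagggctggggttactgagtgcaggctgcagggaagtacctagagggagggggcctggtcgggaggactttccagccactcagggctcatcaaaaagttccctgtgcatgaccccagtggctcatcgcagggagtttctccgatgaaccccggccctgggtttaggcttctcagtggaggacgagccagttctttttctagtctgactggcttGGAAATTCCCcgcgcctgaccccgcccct
Dusp1: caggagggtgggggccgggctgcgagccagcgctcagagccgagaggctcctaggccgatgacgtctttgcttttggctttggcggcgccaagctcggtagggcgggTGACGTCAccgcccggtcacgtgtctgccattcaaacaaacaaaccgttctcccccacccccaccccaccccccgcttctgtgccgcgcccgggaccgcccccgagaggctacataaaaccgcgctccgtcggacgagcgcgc
Tnfaip3 was at 22.8, 39.7, 61.2 and 52.0 CPM in SortIP and at most 0.991 in HA. Dusp1 was at 116, 814, 364 and 100.0 CPM in SortIP and 21.1, 35.1, 29.6 and 14.9 in HA, with mice 9 and 17 highest in both. A match is a string of letters in this window and says nothing of binding in these cells.

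Chaperone genes, which heat and protein damage induce, had no common direction: of 23 tested (25 listed), 9 were called higher, 9 lower and 5 neither. Hspa5, the chaperone BiP of the endoplasmic reticulum, was at 35.9, 27.8, 33.3 and 47.6 CPM in HA and 1093, 684, 1170 and 1105 in SortIP (−4.64 ± 0.20). Chordc1 (−4.98 ± 0.37) and Dnaja1 (−2.40 ± 0.22) were lower, and both have AT-rich transcripts (35.7 and 41.5% GC). With the GC and length correction their values were −1.54 and −0.49. Cryab, a small heat shock protein abundant in oligodendrocytes, was higher by 6.82 ± 0.27. Hspa1a and Hspa1b, the inducible HSP70 genes, which are near-identical copies and uncertain for that reason, were not called.

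Genes of energy metabolism and lipid synthesis were mostly higher in HA. Of 73 tested respiratory chain genes (75 listed) 67 were called higher and 4 lower, with a median of 2.15, or 1.29 with the GC and length correction. Of the 73, 42 had all HA libraries above all IgG libraries (57.5%, against 24.1% of all tested genes). Uqcr10, a small subunit of complex III, was at 2375, 2158, 2504 and 1763 CPM in HA and 108, 130, 140 and 120 in SortIP (4.30 ± 0.20), and Uqcr11 and Ndufb9 were higher by 3.94 ± 0.20 and 3.86 ± 0.20. Uqcrb, another complex III subunit (42.2% GC), fell by 3.85 ± 0.29 and was below IgG as well (5.66 ± 1.70 against 63.5 ± 37.3 CPM). Of 19 tested cholesterol synthesis genes (22 listed) 16 were called higher and 1, Ebp, lower, with a median of 2.65, and 10 of the 19 passed the filter through HA. Fdft1, squalene synthase, was at 242 ± 34.8 CPM in HA and 9.32 ± 5.62 in SortIP (5.14 ± 0.29), and Pmvk (3.09 ± 0.23) and Mvd (2.71 ± 0.25) were also higher.

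Cytosolic ribosomal protein genes divided evenly in the comparison. Of 77 tested (81 listed) 20 were called higher and 21 lower around a median of −0.12, but with a correction for length 58 were called lower and the median was −0.96. With GC and length corrected, 56 were called lower and 7 higher. Rpl39 was the lowest, at 3.17, 0.857, 5.76 and 4.95 CPM in HA and 298, 281, 423 and 364 in SortIP (−6.37 ± 0.26), and Rpl22l1, the paralogue of the tagged gene, fell by 3.63 ± 0.28. Rps4x fell by 3.36 ± 0.25 and Rpl14 was higher by 1.93 ± 0.18. Ribosomal protein genes have many processed pseudogenes, so their counts are uncertain where reads could be shared.

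RNAs retained in the nucleus are not translated, and 5 of 10 listed were tested, 3 called lower and 2 higher. Malat1 was at 9.50, 16.3, 19.3 and 5.62 CPM in HA, 910, 942, 1576 and 536 in SortIP, 485 ± 272 in IgG and 2882 in Sort. It fell by 6.14 ± 0.22 and was below the isotype control in every mouse. Neat1 fell by 2.79 ± 0.27, or 1.00 with the GC and length correction, and the list median, −2.79 without the correction, moved by as much. Malat1 stood at −4.28 with it. Kcnq1ot1 had 3 counts over the HA libraries, a pooled ratio of SortIP to HA of 157 (95% counting interval 52.4 to 770). The call of Kcnq1ot1, whose GC content is 40.3%, was lost with the GC and length correction (adjusted p = 0.0575). Meg3, a nuclear RNA of neurons, was higher in HA than in SortIP by 1.80 ± 0.37, with overlapping groups, and at 28.4 ± 12.3 CPM stood far below the 978 ± 751 of IgG. All 5 tested members of this list had every HA library below every IgG library, against 37.6% of all tested genes. Of the 5, 2 were over the filter cutoff in every HA library only and 2 in every SortIP library only.

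The largest changes over all genes included several members of the lists above. Of the 8 that were highest in HA by the naming rule, all had 0 counts in SortIP: Fmod was at least 147-fold higher, Hapln2, a matrix link protein of nodes of Ranvier, at least 129-fold, Olig2 at least 119-fold, Myrf, the transcription factor of myelination, at least 101-fold, Lims2 at least 94.6-fold, Wnt7a at least 86.5-fold, 3110082J24Rik at least 81.4-fold and Aif1l at least 73.1-fold. In all 8 the HA mean was above the IgG mean, as in 4426 of all 10494 tested genes. Over all tested genes 185 had no count in SortIP and 23 had none in HA.

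Most of the 8 lowest encode receptors or surface proteins of immune cells. Cd48 had no count in HA and 276, 111, 248 and 224 CPM in SortIP, at least 663-fold lower in HA. Gpr65, Cd2ap, which encodes a cytoplasmic adaptor, and Cysltr1 were at least 279-fold, 247-fold and 218-fold lower. Tlr7, an endosomal sensor of RNA, and the chemokine receptor Ccr1 had 2 counts and 1 count in HA, with SortIP to HA ratios of 2050 (566 to 16952) and 1637 (292 to 64818), and Cd53, a tetraspanin, fell by 9.72 ± 0.32. Gpr34 completes the set.

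Few markers of blood cells passed the filter. Of 10 monocyte, 12 neutrophil and 15 lymphocyte genes in the table, 1, 1 and 2 passed the filter. These were Nr4a1, described above, Csf3r (−4.89 ± 0.27, 148 ± 27.6 CPM in SortIP), Cd79b (−3.71 ± 0.38) and Il7r, which had 1 count in HA and 25.9 ± 8.94 CPM in SortIP. Nr4a1 passed through HA and the others through SortIP, so each direction was largely fixed by entry into the test. The defining T cell genes Cd3e, Cd3d and Cd3g had no count in either group. The neutrophil list took 0.0149 to 0.0368% of SortIP counts, with mouse 21 highest, and at most 0.00106% of HA counts. Csf3r alone, at 146, 184, 148 and 116 CPM in SortIP, made up most of that share in mice 7, 9 and 17. Sorted microglia without precipitation held Csf3r at 256 ± 115 CPM.

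The same contrast in the Cx3cr1-CreER:RPL22-HA line, with 4 mice treated alike, was set beside these differences. For its sorted libraries titles and descriptions disagree on which were precipitated, so values are given by title and then by description. In an interaction test over the 16 libraries 3258 of 10512 genes differed between lines (31.0%), 1338 higher (12.7%) and 1920 lower (18.3%) in the Sall1 line, and by description 3325 of 10290 (32.3%), 1780 higher (17.3%) and 1545 lower (15.0%). All mice of one line were compared with all of the other, and sequencing batches of the lines were not given by the labels, so line and batch cannot be told apart.

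Nearly all microglial genes differed. Of 35, 33 were lower in the Sall1 line by either grouping and 0 higher, with medians of −3.86 and −3.43. Cx3cr1 had means of 864 ± 196 CPM in HA and 3444 ± 1168 in SortIP of the Cx3cr1 line, so its fold change differed by −4.10 ± 0.25 between lines (−4.11 by description). For Gpr34 the difference was −4.91 ± 0.51 (−4.88), with 21.9 ± 8.73 CPM in Cx3cr1 HA, and for Sall1 −1.33 ± 0.27 (−1.21). Macrophage genes, of which 10 were tested here, were all lower, with a median of −7.08 (−6.67). Since 3 of them passed the filter in the Sall1 libraries alone, the others entered through the Cx3cr1 libraries, where they are high, and that entry largely fixes the direction. Pf4 reached 250 ± 56.7 CPM in Cx3cr1 HA and 3.20 ± 1.58 in Sall1 HA (−7.31 ± 0.56), and Mrc1 22.6 ± 8.54 and 0.882 ± 0.703 CPM (−7.48 ± 0.65). All 8 MHC class II genes were lower as well, by a median of −5.19 (−4.55).

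Glial genes differed the other way, though in fewer members. Of 26 astrocyte genes 13 were higher and 2 lower in the Sall1 line (17 and 2 by description), and of 24 oligodendrocyte genes 10 were higher and 1 lower (16 and 0). Mog stood at 34.2 ± 13.3 CPM in Cx3cr1 HA and 0.956 ± 0.331 in Cx3cr1 SortIP, so it was higher in HA than in sorted cells there too. Its difference between lines was called in the interaction test (adjusted p = 0.00514, or 0.0195 by description). Olig2 was at 11.7 ± 5.94 CPM in Cx3cr1 HA (adjusted p = 0.00332, or 0.0115 by description). Both rest on few counts in Sall1 SortIP, 2 for Mog and 0 for Olig2. Of 73 genes of the respiratory chain, 50 differed upwards and 1 downwards (67 and 0 by description).

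Ccl2 and Rpl22 gave no call between lines. Ccl2 was at 1.01 ± 1.19 CPM in Cx3cr1 HA and 93.0 ± 52.7 in Cx3cr1 SortIP (adjusted p = 0.151, or 0.073 by description), so it was also near 0 in the direct precipitate of that line. NF-kappaB genes, which were lower in HA in the Sall1 line, were lower still relative to the Cx3cr1 line in 14 of 20 (12 by description). Immediate early genes gave 9 lower and 5 higher of 34 (9 and 6), and the 2 lists were not tested against each other. Beside both counts, 18.3% of all tested genes were lower and 12.7% higher between lines (15.0 and 17.3% by description). For Rpl22 the difference was −0.03 ± 0.25 (adjusted p = 0.959).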

How the data were processed

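Polyadenylated RNA of 32 libraries was sequenced, and 8 were compared here, with 8 more of the Sall1 line and the HA and sorted libraries of the Cx3cr1 line as references. The deposited table holds raw exon counts for 24411 genes, made by the authors with bcl2fastq, HISAT 0.1.5 and HOMER on mm9, per the submitters' processing notes; handling of strand and of reads that map to several places is not stated there. Column names gave the groups. Counts were tested with edgeR 4.0.16 (R 4.3.3, limma 3.58.1; robust quasi-likelihood, TMM scaling, low-count filter at a minimum count of 10, Benjamini-Hochberg adjustment at 0.05) with the mouse as a block, since labels say each brain was divided between sample types. Correlations of deviations between libraries of one mouse were 0.0658, 0.00511, 0.00588 and −0.0128 over 7131 genes. CPM used raw library totals. Line differences were tested as an interaction. Alternatives were DESeq2 1.42.0, other scalings and filters, no block, all groups in one fit, a length correction, each mouse left out and, chosen after seeing the data, a GC and length correction. Genes with 0 counts in a group are bounded with a floor of 3 counts over the group, and those with 1 to 3 counts have an exact 95% interval of the ratio; both cover counting error only, and reads carry no molecular identifiers as far as the labels say. The scripts were tested on simulated data.

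Members and lists were chosen with earlier results of these data known. Named genes were Sall1, Cx3cr1, Rpl22, Mog, Olig2, Gpr34 and Ccl2; in each list the 3 members of smallest p on the side of its median, plus the most significant call on the opposite side; the 8 higher and 8 lower called genes with the largest fold change, groups that do not overlap and an average log2 CPM of 4 or more; and by the same rule 4 genes in each direction of the line difference. Other list members named in the text were chosen after their values were seen. Some genes that the rule names are not reported here. Each mouse is 1 sample per group. With the mouse as a block, p-values measure how the difference between HA and SortIP varies over the 4 Sall1 mice. Those of the line difference measure how it varies over the 4 mice of each line. Positions are in mm9; GC content came from GENCODE mouse transcripts, to which 23838 genes were matched by RefSeq accession, 348 by symbol and 225 not at all. Promoters came from RefSeq for GRCm38.p6 and were matched by symbol, so no coordinates were carried between builds.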

Additional observations from a re-analysis of the deposited data

Results flagged for a closer look

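In 227 groups of 4 libraries (named genes and list shares), 18 had a library whose distance from the nearest other exceeded Dixon's 95% critical value, and chance alone flags about 1 group in 20. Of these, 5 were the SortIP library of mouse 21. Ttr stood at 3890 CPM there (656 to 1191 in the other 3), the choroid plexus list at 0.469% of gene counts (0.0747 to 0.141%), Bcan at 12.0 CPM (3.80 to 5.10), Ndufb9 at 216 (125 to 139) and Icam1 at 76.0 (167 to 173). Bcan had 14 counts over the 4 SortIP libraries, of which this was the shallowest, so its value rests on few counts.

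The SortIP library of mouse 9 was set apart for Hspa5 at 684 CPM (1093 to 1170), Trem2 at 3833 (2409 to 2490) and Tlr7 at 298 (468 to 500), and that of mouse 17 for Ccl12 at 679 (285 to 348) and Kcnq1ot1 at 74.5 (30.4 to 35.1). Among HA libraries, mouse 21 differed for the pericyte genes Vtn at 517 CPM (304 to 334) and Pdgfrb at 55.2 (39.9 to 42.4), the ependymal gene Ccdc153 at 65.4 (32.1 to 35.4) and Rpl22l1 at 3.63 (7.40 to 7.92). Mouse 7 differed for Fdft1 at 293 CPM (217 to 230) and for the disease-associated list at 2.49% (2.12 to 2.15%), mouse 9 for Nrgn at 2296 CPM (1885 to 1947), and mouse 17 for MHC class II at 0.0103% (0.0134 to 0.0140%).

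The change from SortIP to HA differed between the Sall1 and Cx3cr1 lines in an edgeR interaction test for Mrc1 (−7.48), Pf4 (−7.31), Gpr34 (−4.91), Cx3cr1 (−4.10) and Sall1 (−1.33, log2 units). For each of these the direction was the same when the sorted Cx3cr1 libraries were grouped by description.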

How the results depend on the processing

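Counts over all genes stayed within 1.5 times of 4451 higher and 3919 lower in all settings but the stricter filter. They were 4448 higher and 3964 lower with no replicate block (1358 and 1954 between lines), 4200 and 4227 without TMM, 4687 and 3695 with median-ratio scaling, 4433 and 3470 with DESeq2, and 4208 to 4404 higher and 3610 to 4114 lower with 1 mouse left out. The median of all genes was 0.13, against −0.02 without TMM, 0.27 with median-ratio scaling and 0.28 with DESeq2. A minimum count of 50 left 5851 genes, so fewer were called: 2583 higher and 2331 lower. By list it gave 5 precursor, 2 mural, 2 ependymal, 0 choroid plexus, 6 fibroblast and 9 cholesterol genes higher, and 1 endothelial, 11 NF-kappaB and 6 interferon-stimulated genes lower, and turned the choroid plexus median to −0.52. Choroid plexus genes called higher numbered 2 with DESeq2 and with all 4 groups in one fit, and 1 to 2 with 1 mouse left out. Ribosomal protein genes called lower numbered 58 with a length correction and 56 with GC and length; the cause was not tested. Ttr was called with DESeq2 (1.77, adjusted p = 0.000362) and with all groups in one fit (1.61, adjusted p = 0.0353), and Ebp was not called without mouse 17 (−0.51, adjusted p = 0.0657, edgeR). SortIP depth limits low genes: its floor of 3 counts over the group is 1.14 CPM, against 0.31 in HA.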
